A study of Mus musculus with 3 samples.

Results

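The levels of 10 genes of the p53 pathway, of the 31053 genes in the raw files, were described across the cells of mouse neuroblastoma: Trp53, which encodes p53 itself, its inhibitors Mdm2 and Mdm4, and the 7 target genes Cdkn1a, Ccng1, Zmat3, Sesn2, Trp53inp1, Phlda3 and Eda2r. They were chosen by name, as p53, its inhibitors and textbook targets, with earlier results of these data known. The data came from droplet single-cell RNA sequencing of 3 whole tumors from 3 TH-MYCN mice, 1 tumor per mouse, all heterozygous for the transgene and aged 62, 79 and 63 days (here called tumors 1, 2 and 3). In this model the rat tyrosine hydroxylase promoter drives human MYCN in neural crest-derived cells, so that neuroblastoma arises in sympathetic ganglia of mice with an intact immune system. There was 1 group and no treated or transgene-free sample, so all comparisons were between cell classes of the same tumors, with the tumor as the replicate. The tumors were dissociated with Liberase and DNase before capture, and the libraries count the 3' ends of transcripts, so that a level is compared between cell classes and not between genes.

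p53 is a transcription factor that is kept low in unstressed cells by Mdm2, a ubiquitin ligase that is also a p53 target, and by its relative Mdm4, which covers the p53 transactivation domain. On DNA damage, oncogene activity or metabolic stress, p53 accumulates and turns on genes that arrest the cell cycle, repair damage, alter metabolism or start apoptosis. Much of this control acts on the p53 protein, which RNA counts do not measure. In neuroblastoma, Trp53 is rarely mutated at diagnosis, and MYCN is known to raise transcription of both p53 and Mdm2.

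The authors kept 1914, 1221 and 2515 cells of tumors 1, 2 and 3, with median counts of 4282.5, 1594 and 1816 unique molecular identifiers (UMIs) per cell, and the tumors shared 3, 0 and 1 barcodes (tumors 1 and 2, 1 and 3, 2 and 3). Clusters were named from marker genes, with all genes of the p53 lists held out of the clustering, which gave 13 classes and left 650 cells (11.5%) and a further 144 monocyte or macrophage-like cells unnamed. Tumor-like cells numbered 317, 679 and 1890 and nonclassical monocyte-like cells 293, 40 and 68. The neuroblastoma label held in the tumor-like cells: sympathetic lineage markers (Th, Dbh and others) had a summed level of 3524, 2789 and 3089.8 CPM (UMIs of a gene per 1000000 UMIs of the class). Most immune cells came from tumor 1, and the tumor markers summed to 47.5, 824 and 989 CPM in nonclassical monocyte-like cells and 76.4, 1147 and 1545 CPM in neutrophil-like cells of tumors 1, 2 and 3. The part of such tumor cell RNA in the levels of these classes was not tested.

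The 250 bases before the start site, from RefSeq on GRCm38.p6, are shown for 4 members: the inhibitor that feeds back on p53, both cell cycle targets, and the target that was called higher in nonclassical monocyte-like cells. Capitals mark matches to the p53 consensus decamer, the unit that is repeated in a p53 response element. It was searched without mismatch, and reads the same on both strands.
Cdkn1a, upstream start, chr17:29090729-29090978, plus strand: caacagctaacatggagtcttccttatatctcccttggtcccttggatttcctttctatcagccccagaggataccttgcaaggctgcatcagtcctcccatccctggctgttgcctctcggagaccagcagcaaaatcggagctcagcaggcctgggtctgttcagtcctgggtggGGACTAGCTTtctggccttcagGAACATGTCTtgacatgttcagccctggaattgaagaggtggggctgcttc
Mdm2, chr10:117710759-117711008, minus strand: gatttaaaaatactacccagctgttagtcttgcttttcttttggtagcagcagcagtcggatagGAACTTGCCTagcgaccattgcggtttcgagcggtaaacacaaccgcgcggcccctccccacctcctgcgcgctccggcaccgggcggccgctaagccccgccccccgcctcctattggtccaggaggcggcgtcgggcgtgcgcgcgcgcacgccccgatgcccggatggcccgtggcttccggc
Ccng1, chr11:40755287-40755536, minus strand: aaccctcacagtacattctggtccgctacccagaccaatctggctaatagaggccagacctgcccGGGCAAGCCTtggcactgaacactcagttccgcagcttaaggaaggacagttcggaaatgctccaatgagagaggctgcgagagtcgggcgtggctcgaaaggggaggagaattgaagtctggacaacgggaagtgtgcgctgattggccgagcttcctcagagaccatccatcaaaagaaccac
Phlda3, chr1:135765835-135766084, plus strand: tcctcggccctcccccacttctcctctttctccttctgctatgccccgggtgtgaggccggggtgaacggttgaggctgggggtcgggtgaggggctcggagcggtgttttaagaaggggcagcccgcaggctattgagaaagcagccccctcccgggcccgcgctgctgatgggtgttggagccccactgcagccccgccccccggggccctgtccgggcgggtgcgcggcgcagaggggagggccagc
The upstream Cdkn1a window held the decamers GGACTAGCTT and GAACATGTCT, whose first bases lie 73 and 51 bases before its start. The bases right after GAACATGTCT, tgacatgttc, differ from the consensus only in the initial t and so were not marked. Mdm2 held GAACTTGCCT and Ccng1 GGGCAAGCCT, 186 and 185 bases before theirs, and the printed Phlda3 window held none. Of the 10 members, 8 were in the promoter table, with 10 windows in all, and 4 windows of 4 members held a decamer (the fourth was that of Trp53), while those of Mdm4, Phlda3, Eda2r, Sesn2 and the downstream Cdkn1a start did not. Over all 32851 promoters of this length, 2341 (7.13%) held a decamer. These are matches of letters in a short window, and elements farther away or in introns were not searched.

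Across the 13 classes most of the 10 genes showed 2 patterns, and Zmat3, Ccng1 and Eda2r are described apart below. Trp53, Mdm2 and Mdm4 were found in nearly every class. Cdkn1a, Sesn2 and Trp53inp1 were highest in blood-derived cells, and Phlda3 in stromal cells and nonclassical monocyte-like cells. By class mean, tumor-like cells ranked 12 of 13 for Cdkn1a and 11 for both Sesn2 and Trp53inp1, and 6 for Phlda3, at 4.11 CPM. The heat map of class means shows both. The erythroid-like sums held 23760 and 23655 UMIs in tumors 2 and 3, so that their entries rest on 0 to 1 UMI per tumor and are not discussed.

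**Figure D1:**
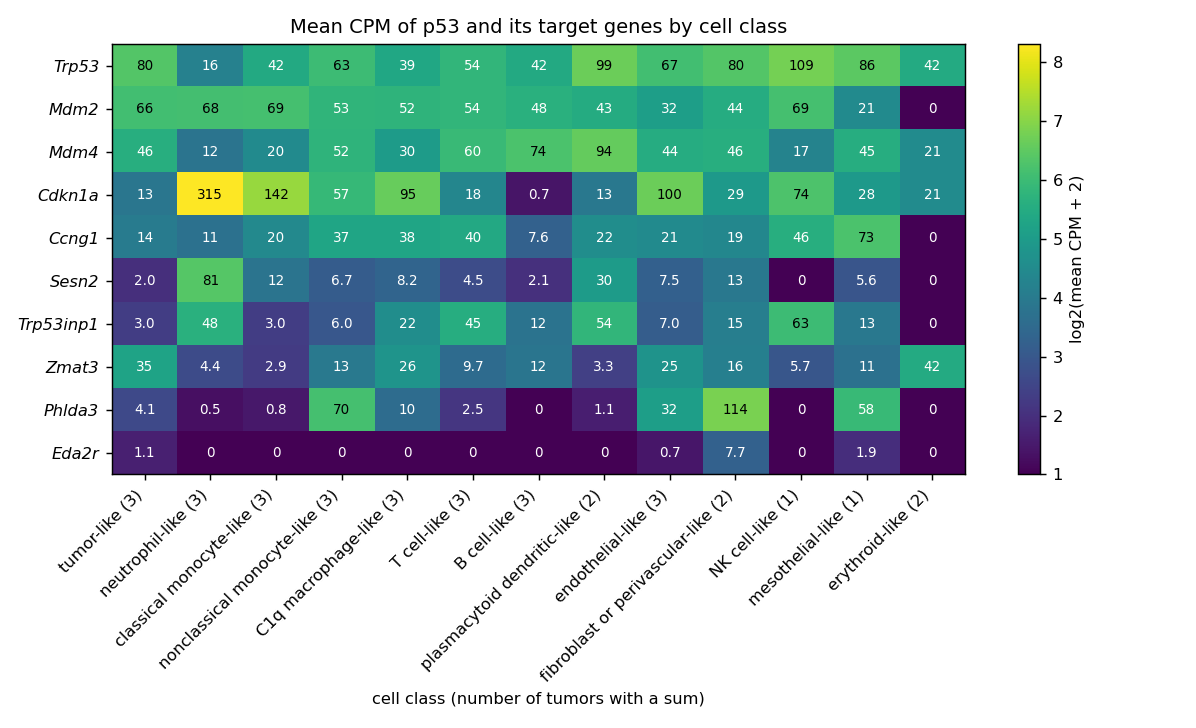
Mean level of the 10 genes (rows) in 13 cell classes (columns, with the number of tumors that had at least 10 such cells), in CPM. The colour is log2 of the mean level plus 2. Cdkn1a is highest in neutrophil-like cells at 315 CPM, Phlda3 in fibroblast or perivascular-like cells at 114 CPM, and Eda2r is highest there too, at 7.67 CPM.

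Trp53 (chr11:69580359-69591873 on GRCm38 in the GENCODE annotation, as are all gene positions here, plus strand) was expressed in tumor-like cells of every tumor, at 91.4, 85.8 and 63.4 CPM in tumors 1, 2 and 3 (54, 117 and 229 UMIs, 80.2 ± 14.8 CPM, mean ± SD, n = 3 tumors). Plasmacytoid dendritic-like cells (99.1 ± 34.1 CPM, SD, n = 2), fibroblast or perivascular-like cells (80.0 ± 22.7 CPM, SD, n = 2) and endothelial-like cells (67.1 ± 23.1 CPM, SD, n = 3) overlapped with them. Nonclassical monocyte-like cells had 48.3, 94.2 and 46.4 CPM, with tumor 2 the high one. T cell-like (54.5 ± 21.5 CPM), classical monocyte-like (41.7 ± 14.4 CPM), B cell-like (41.6 ± 38.3 CPM) and C1q macrophage-like cells (38.8 ± 15.1 CPM, SD, n = 3 each) followed, and each class lay within 1 SD of its neighbour in this order. NK cell-like and mesothelial-like cells had sums only in tumor 1, at 109 and 86.3 CPM. Neutrophil-like cells stood at the other end, at 4.24, 22.5 and 22.4 CPM (3, 3 and 1 UMIs). Their range did not overlap with that of tumor-like cells, although tumor markers were present in them in tumors 2 and 3, as given above.

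The inhibitors were broadly expressed. Mdm2 (chr10:117688875-117710758, minus strand) had 71.1, 71.9 and 55.4 CPM in tumor-like cells, 47.5, 58.8 and 53.5 CPM in nonclassical monocyte-like cells and 90.5, 45 and 67.2 CPM in neutrophil-like cells, and these ranges overlapped. The class means of Mdm2 ran from 32.2 CPM in endothelial-like to 69.1 CPM in classical monocyte-like cells among classes with sums in 3 tumors, with an SD of 72.4 CPM in the latter. Mdm4 (chr1:132959484-133030561, minus strand), which binds p53 without degrading it on its own, was at 42.3, 53.5 and 42.6 CPM in tumor-like cells and 53.8, 53 and 49.97 CPM in nonclassical monocyte-like cells. It was at lower values in classical monocyte-like cells, at 36.9, 0 and 24.3 CPM, and in neutrophil-like cells, at 28.3, 7.5 and 0 CPM, and at higher ones in B cell-like cells, at 83.5, 39.9 and 99.0 CPM. The 3 B cell-like values lay above all values of the classical monocyte-like cells, but the lowest was close to the highest classical value. That B cell-like value, of tumor 2, came from 15 cells with 25033 UMIs in all, and so from very few UMIs of Mdm4.

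Cdkn1a (chr17:29090976-29100727, plus strand) encodes p21, the inhibitor of cyclin-dependent kinases through which p53 arrests the cell cycle. Its level varied widely between classes. Neutrophil-like cells had 556, 277 and 112 CPM (393, 37 and 5 UMIs) and classical monocyte-like cells 168, 125 and 134 CPM (373, 5 and 11 UMIs). C1q macrophage-like cells had 77.5, 118 and 90.6 CPM, and nonclassical monocyte-like cells 68.1, 47.1 and 57.1 CPM (162, 8 and 16 UMIs), below the range of the other monocyte and macrophage classes. Tumor-like cells had 5.08, 30.1 and 3.04 CPM (3, 41 and 11 UMIs), and tumor 2 was the high one. Their values lay below those of neutrophil-like, classical, nonclassical and C1q cells in all 3 tumors. Endothelial-like cells had 59.8, 239 and 0 CPM, and B cell-like cells had 2.06, 0 and 0 CPM. Ccng1 (chr11:40748552-40755311, minus strand), cyclin G1, a target that helps to restore Mdm2 activity after stress, had 23.7, 9.53 and 10.2 CPM in tumor-like and 50.4, 29.4 and 32.1 CPM in nonclassical monocyte-like cells, and its highest level was 73.2 CPM in the mesothelial-like cells of tumor 1.

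**Figure D2:**
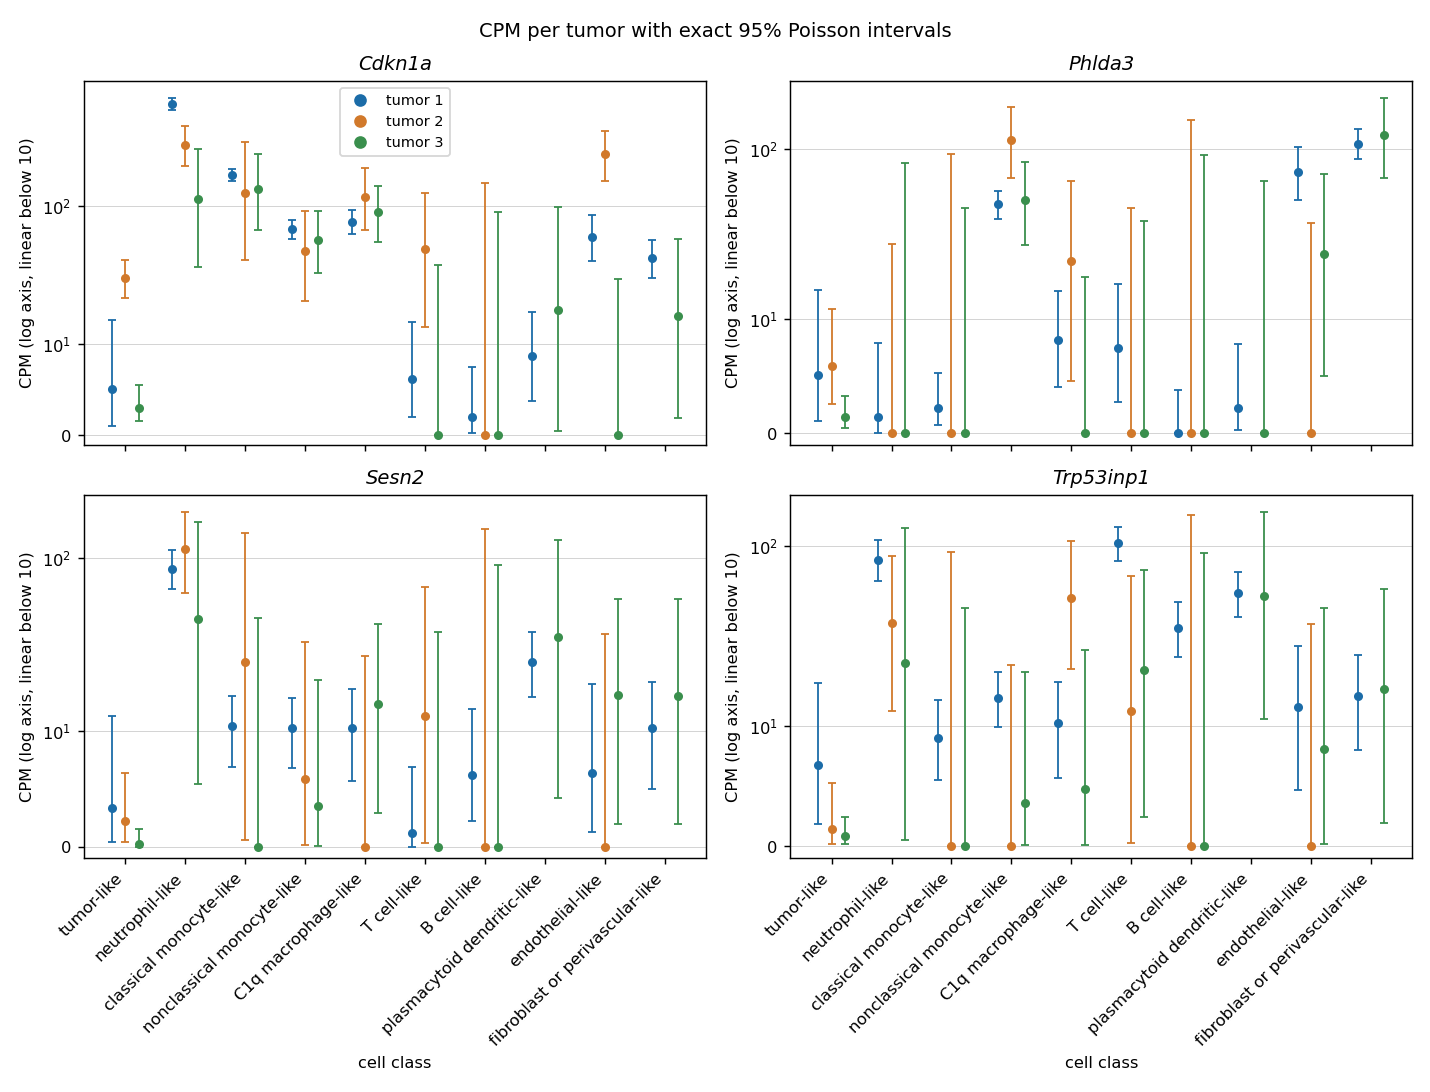
Level of Cdkn1a, Phlda3, Sesn2 and Trp53inp1 in CPM (log axis, linear below 10) in each tumor for 10 classes, with exact 95% Poisson intervals of the UMI count. Tumor-like cells lie near 0 for all 4 genes except Cdkn1a of tumor 2 at 30.1 CPM.

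Among the targets tied to metabolic stress, autophagy and RNA, Sesn2 (chr4:132492032-132510501, minus strand), sestrin 2, a leucine sensor that restrains mTORC1, was highest in neutrophil-like cells, at 86.3, 112 and 44.8 CPM (61, 15 and 2 UMIs). Plasmacytoid dendritic-like cells came next, at 25 and 35.2 CPM in tumors 1 and 3, and tumor-like cells had 3.38, 2.20 and 0.277 CPM (2, 3 and 1 UMIs). No tumor-like value came near any neutrophil-like value. Trp53inp1 (chr4:11156431-11174379, plus strand), which takes part in autophagy and p53-driven death, had 103, 12.2 and 20.4 CPM in T cell-like cells, 83.5, 37.5 and 22.4 CPM in neutrophil-like cells and 54.4 and 52.8 CPM in plasmacytoid dendritic-like cells of tumors 1 and 3. Tumor-like cells had 6.77, 1.47 and 0.830 CPM and classical monocyte-like cells 9.01, 0 and 0 CPM. The T cell-like level was high in tumor 1 and low in tumors 2 and 3, so that it does not differ from its neighbours in the order beyond its spread. Zmat3 (chr3:32334792-32366014, minus strand), a zinc finger protein that binds RNA and alters splicing, went the other way. Tumor-like cells had 45.7, 35.2 and 25.5 CPM (27, 48 and 92 UMIs). Nonclassical monocyte-like cells lay lower, at 7.14, 11.8 and 21.4 CPM, as did classical monocyte-like cells, at 8.56, 0 and 0 CPM. C1q macrophage-like cells (11.2 to 51.4 CPM, 25 UMIs) and endothelial-like cells (14.9 to 40.4 CPM, 14 UMIs) overlapped with tumor-like cells in range.

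Phlda3 (chr1:135766119-135769136, plus strand), a pleckstrin homology domain protein that competes with Akt for membrane lipids, was restricted to a few classes. Fibroblast or perivascular-like cells had 107 and 120.2 CPM in tumors 1 and 3 (102 and 15 UMIs), and nonclassical monocyte-like cells 47.1, 112 and 49.97 CPM (112, 19 and 14 UMIs). Endothelial-like cells had 72.6, 0 and 24.2 CPM and the mesothelial-like cells of tumor 1 58.2 CPM. In the other blood-derived classes it was nearly absent: classical monocyte-like cells had 5, 0 and 0 UMIs, neutrophil-like cells 1, 0 and 0, T cell-like cells 6, 0 and 0 and B cell-like cells 0, 0 and 0 UMIs in tumors 1, 2 and 3. C1q macrophage-like cells had 8.19, 22.0 and 0 CPM and tumor-like cells 5.08, 5.87 and 1.38 CPM. Each nonclassical value lay above every value of these classes. Eda2r (chrX:97333840-97377216, minus strand), a death receptor of the TNF receptor family that binds ectodysplasin A2, was seldom found, with 10, 2 and 4 UMIs in all kept cells of tumors 1, 2 and 3. Of these, 7 and 1 lay in the fibroblast or perivascular-like cells of tumors 1 and 3, which made 7.34 and 8.01 CPM, and no other class had more than 2 UMIs in a tumor. Eda2r was in too few UMIs to be tested.

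Whether malignant cells differ from the cells around them in p53 pathway expression was asked by setting tumor-like cells against the other classes. Tumor-like cells had Trp53 and Mdm2 at levels within the range of the other classes, and low levels of Cdkn1a, Sesn2, Trp53inp1 and Phlda3. In the fit over all classes, which compares tumor-like cells with the unweighted mean of the other classes, 8 of the 10 genes passed the filter on low counts (not Zmat3 and Eda2r), and 0 were called in either direction (edgeR quasi-likelihood test with Benjamini-Hochberg adjustment, threshold 0.05). Of all 8179 genes tested, 24.5% were called higher and 3% lower. Cdkn1a had an unadjusted p of 0.0262 in this edgeR fit, the one of the 8 under 0.05, with a log2 fold change of -1.79 (SE 0.76, adjusted p = 0.0832). The same edgeR fit with each tumor as a block called 1 member, Cdkn1a, which was lower by 1.88 on the log2 scale (adjusted p = 0.0187), beside 3.56% of genes lower and 28.1% higher. The DESeq2 test on the same sums called 3 members lower, Cdkn1a, Sesn2 and Trp53inp1, beside 18.3% of all genes lower and 22.9% higher, and limma on the authors' normalized values called 0, beside 1.64% lower and 0.657% higher. A mean over classes has no finite value on the log scale when 1 class holds no UMI of a gene, which was so for Mdm2, Phlda3, Ccng1, Sesn2 and Trp53inp1, in erythroid-like cells and, for Phlda3 and Sesn2, also in other classes.

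For this reason, a comparison added after the data had been seen pooled all other named cells of a tumor into 1 sum, and set the tumor-like sum against it with each tumor as a block, since both sums come from the same animal. Of the 9 members tested, 5 were lower in tumor-like cells and 0 higher, beside 28.2% of 9928 genes called lower and 16.6% higher. Cdkn1a fell by 3.53 on the log2 scale (SE 0.45, adjusted p = 0.00212 in edgeR), Phlda3 by 3.43 (SE 0.47, adjusted p = 0.00281) and Sesn2 by 3.75 (SE 0.60, adjusted p = 0.00496). Trp53inp1 fell by 3.27 (SE 0.46, adjusted p = 0.00325) and Ccng1 by 1.34 (SE 0.28, adjusted p = 0.0139), and all 5 were lower in 3 of 3 tumors. The same 5 genes were lower without the block, beside 28.1% of genes lower and 13.5% higher. Trp53 itself did not pass the test, at a log2 fold change of 0.20 (SE 0.20, adjusted p = 0.439), nor did Mdm2 at 0.15 (SE 0.22, adjusted p = 0.588), Mdm4 at -0.19 (SE 0.29, adjusted p = 0.610) or Zmat3 at 0.96 (SE 0.37, adjusted p = 0.0783), although Zmat3 was higher in 3 of 3 tumors. Without the block, Ccng1 was no longer called when tumor 2 (adjusted p = 0.147) or tumor 3 (adjusted p = 0.110) was left out, nor Trp53inp1 without tumor 2 (adjusted p = 0.0570), all by edgeR. The pooled sum weights classes by their UMIs, so that it differs in makeup between tumors.

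**Figure D3:**
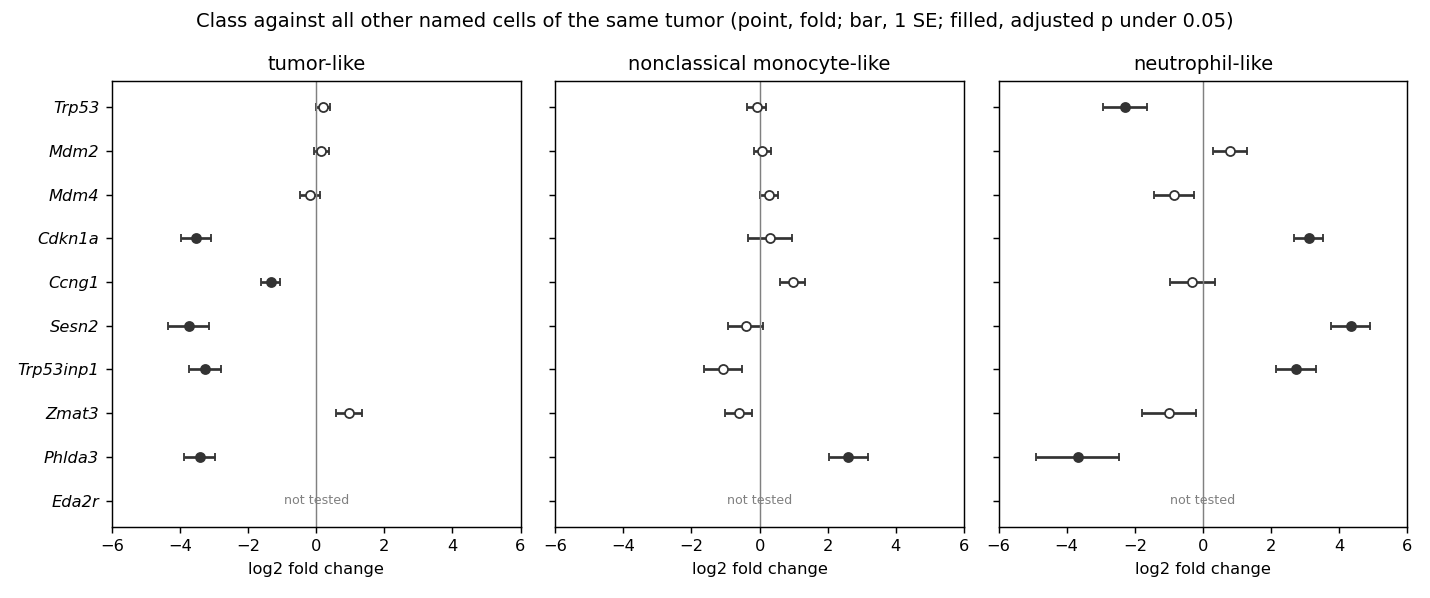
Log2 fold change, with 1 SE, of 9 members in tumor-like, nonclassical monocyte-like and neutrophil-like cells against all other named cells of the same tumor pooled, with each tumor as a block (n = 3 tumors). Filled points have an adjusted p under 0.05. Tumor-like cells are lower for 5 members, from -1.34 for Ccng1 to -3.75 for Sesn2.

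Counted per tumor, tumor-like cells made up 16.6%, 55.6% and 75.1% of the kept cells and held 0.249%, 24.3% and 16.2% of the Cdkn1a UMIs, while neutrophil-like cells made up 12.3%, 4.42% and 0.875% of the cells and held 32.7%, 21.9% and 7.35% of them. With each cell thinned to 500 UMIs, and no cell left out, Cdkn1a was found in 21.6%, 11.1% and 9.09% of neutrophil-like cells and 0.315%, 1.47% and 0.265% of tumor-like cells of tumors 1, 2 and 3 (unthinned, 49.6%, 35.2% and 13.6% and 0.946%, 4.57% and 0.582%). In B cell-like cells of tumor 1, which had the lowest level, 2 of 204 cells (0.980%) held an unthinned UMI at a median depth of 4367 UMIs, against 974 UMIs in tumor-like and 2608 UMIs in neutrophil-like cells of that tumor, and none of the 15 and 26 B cell-like cells of tumors 2 and 3 held one. These unthinned shares come from unequal depths. Thinned to the same 500 UMIs, 0 of the 204 cells held one, which allows a share of cells with a UMI of up to 1.47%. The thinned tumor-like shares of tumors 1 and 3 lay under that limit, and that of tumor 2 lay at it to the digits given. None of them could be told apart from the B cell-like share at that depth, and the limit comes from tumor 1 only. Some neutrophil RNA was found with tumor-like cells: the 9 neutrophil markers summed to 135, 77.0 and 10.8 CPM there, against 148311, 139642 and 44506 CPM in neutrophil-like cells, and S100a8 was at 45.7, 27.1 and 2.77 CPM against 55059.7, 53922 and 14044 CPM. Its part in the Cdkn1a level was not tested. In the authors' corrected counts, from which ambient RNA had been removed, tumor-like cells had 0, 33.9 and 4.23 CPM of Cdkn1a.

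Nonclassical monocytes are patrolling blood monocytes that mature from classical ones and stay in the vessel lumen. In the fit over all classes, Phlda3 was the one member of 8 called in them. It was higher by 4.21 on the log2 scale (SE 0.61, adjusted p = 1.66e-05, edgeR) than in the mean of the other classes, beside 12.5% of 8179 genes called higher, and 0 members were lower, beside 0.11% of genes. The size of this fold depends on how the classes with no Phlda3 UMI enter the mean. Against all other named cells of the tumor pooled, Phlda3 was higher by 2.61 (SE 0.56, adjusted p = 0.0397) with each tumor as a block, in 3 of 3 tumors, the one call among the members beside 4.54% of 10713 genes called higher and 6.34% lower. Without the block its edgeR value was 2.49 (adjusted p = 0.225), in a fit that called 0 of 10713 genes, while an unadjusted p under 0.05 was reached by 529 genes upward and 925 downward. With tumors left out in turn, the unblocked edgeR value was 3.66 (adjusted p = 0.00359) without tumor 1, 2.06 (adjusted p = 0.852) without tumor 2 and 2.29 (adjusted p = 0.395) without tumor 3. Tumor 1 held 48 of the 86 fibroblast or perivascular-like and 16 of the 27 mesothelial-like cells. Phlda3 was also high in these classes, which are in the pooled sum, and their part in these values was not tested.

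Set against the related classical monocyte-like and C1q macrophage-like cells, 4 members passed the filter in the fit of these 3 classes, and 0 were called, beside 1.35% of 3770 genes called higher and 1.51% lower. Cdkn1a was at a log2 fold change of -1.13 (SE 0.29, unadjusted p = 0.00272, adjusted p = 0.0689 in edgeR), the one member with an unadjusted p under 0.05. DESeq2 called 0 members as well, beside 1.59% of genes higher and 2.79% lower, and so did limma, beside 0.9% and 1.5%. With each tumor as a block, Cdkn1a was lower in nonclassical cells, by 1.07 on the log2 scale (adjusted p = 0.0172), beside 5.25% of genes called lower and 6.82% higher. Phlda3 was left out by the filter on low counts in this fit. Classical cells held 5, 0 and 0 and C1q cells 11, 3 and 0 UMIs of it in tumors 1, 2 and 3. With both classes pooled per tumor and each tumor as a block, the edgeR log2 fold change of Phlda3 in nonclassical cells was 3.30 (SE 0.46, adjusted p = 8.56e-06), beside 7.32% of 4141 genes called higher. Cdkn1a had -1.11 in that fit (SE 0.27, adjusted p = 0.00474), beside 6.42% of genes lower, and without the block no member was called, beside 0.749% and 1.52% of genes. Against C1q macrophage-like cells alone, Phlda3 was higher by 2.60 (adjusted p = 0.00211) and Cdkn1a was at -0.66 (adjusted p = 0.202), both blocked in edgeR, beside 9.77% of genes higher and 8.7% lower. Without the block this comparison called 0 of 5 members, with Phlda3 at 2.77 (unadjusted p = 0.00462, adjusted p = 0.0555 in edgeR) and Cdkn1a at -0.75 (unadjusted p = 0.0459), beside 2.7% and 5.18% of genes. Against classical monocyte-like cells alone, Phlda3 was higher in edgeR both without the block (4.82, adjusted p = 0.0413, beside 0.399% of genes higher and 0.541% lower) and with it (4.38, adjusted p = 0.000211, beside 5.07% and 2.79%). Cdkn1a was at -1.38 (adjusted p = 0.146) without the block and was lower by 1.36 (adjusted p = 0.00670) with it, in the same edgeR fits.

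The nonclassical monocyte-like cells formed a pair of subclusters, the first led by inflammatory genes such as Tnf, Ccl4 and Il1rn, and the second by Vegfc, Fcgr4 and Pecam1. Cdkn1a was at 51.6, 24.7 and 49.4 CPM in the first and 94.0, 104 and 77.2 CPM in the second, higher in the second in each tumor. In tumors 2 and 3 nonclassical cells held few Cdkn1a UMIs, as given above, so that the order there is imprecise. Phlda3 had no such order, at 27.5, 148 and 49.4 CPM (40, 18 and 10 UMIs) against 77.8, 20.7 and 51.4 CPM (72, 1 and 4 UMIs): the second was higher in tumor 1 and lower in tumor 2. Trp53 was at 48.1, 123 and 44.5 CPM in the first and 48.6, 20.7 and 51.4 CPM in the second. Subclusters of the same cells were not tested, since they were formed from those cells. With cells thinned to 500 UMIs, Phlda3 was found in 2.05%, 7.5% and 1.47% of nonclassical monocyte-like cells (unthinned 24.2%, 22.5% and 11.8%, median depths 7026, 3771.5 and 3776 UMIs), and in 0 of 204 B cell-like cells of tumor 1 at the same 500 UMIs, which allows a share of cells with a UMI of up to 1.47%. The thinned nonclassical share of tumor 3 was not above that limit. Unthinned, 0 of these 204 B cell-like cells held a UMI of it, at a median depth of 4367 UMIs.

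**Figure D4:**
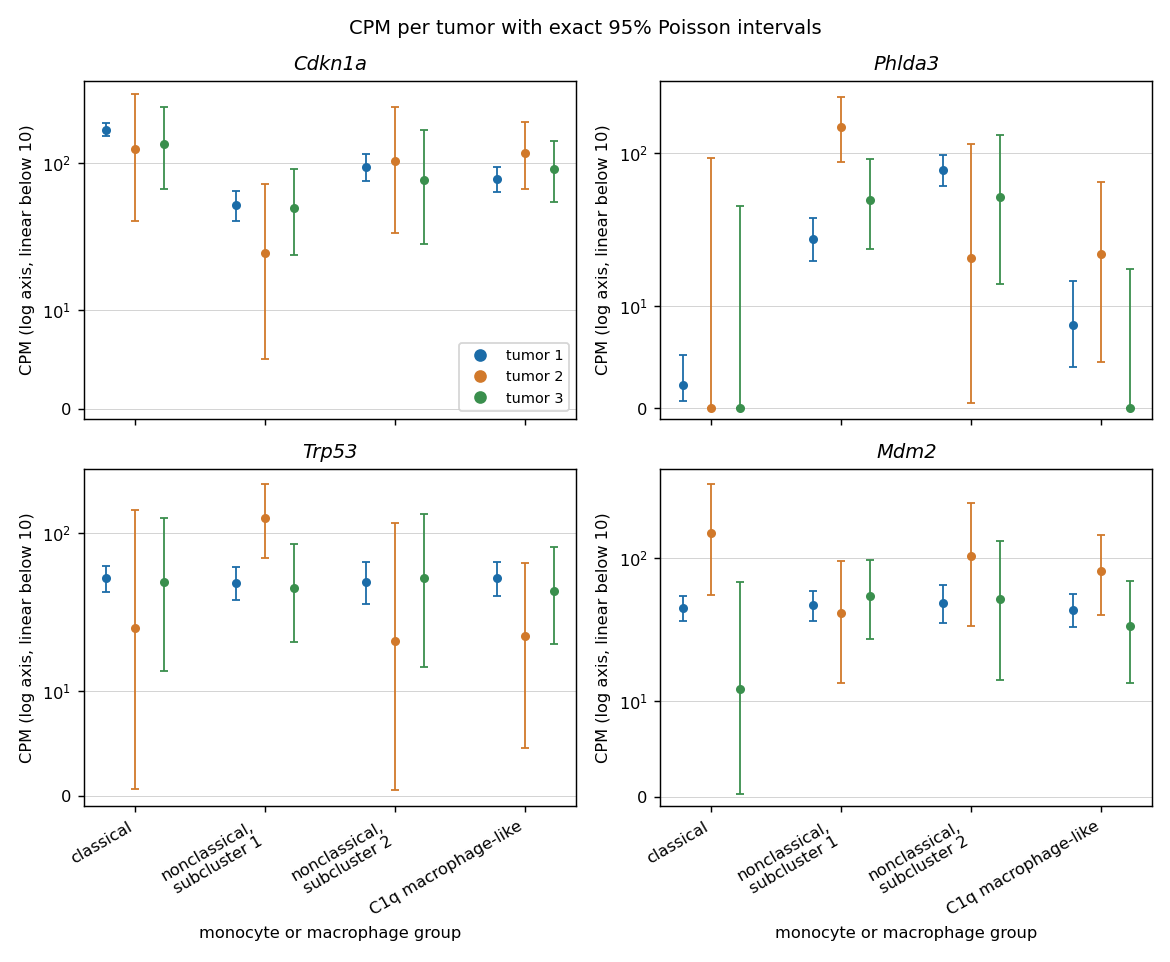
Level of Cdkn1a, Phlda3, Trp53 and Mdm2 in CPM, by tumor, in classical monocyte-like cells, both nonclassical subclusters and C1q macrophage-like cells, with exact 95% Poisson intervals. Phlda3 lies above 22.0 CPM, the highest C1q value, in all but 1 of the 6 nonclassical points.

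Neutrophils are short-lived phagocytes that no longer divide. Neutrophil-like cells had the highest mean Cdkn1a and Sesn2 and the lowest mean Trp53 of the named classes, and were compared after these levels had been seen. The p-values of these genes in them, here and against tumor-like cells below, are therefore no independent test. In the fit over all classes, 4 members were higher, Sesn2 (adjusted p = 1.77e-07), Cdkn1a (adjusted p = 6.79e-07), Trp53inp1 (adjusted p = 0.00605) and Mdm2 (adjusted p = 0.0137), and 1 was lower, Trp53 (log2 fold change -2.24, SE 0.62, adjusted p = 0.00919), all by edgeR's quasi-likelihood test, beside 15.7% of 8179 genes higher and 1.31% lower. Mdm2 was above the mean of the other classes in 2 of 3 tumors, at a mean of 67.6 CPM against 45.9 CPM. It was not called in the pooled comparison that follows. The fold of Mdm2, Sesn2 and Trp53inp1 in the fit over all classes depends on how erythroid-like cells, with no UMI of them, enter the mean. Against all other named cells of the tumor pooled and with each tumor as a block, Cdkn1a was higher by 3.11 on the log2 scale (SE 0.43, adjusted p = 2.09e-11), Sesn2 by 4.34 (SE 0.57, adjusted p = 1.06e-12) and Trp53inp1 by 2.73 (SE 0.60, adjusted p = 7.36e-05). Trp53 was lower by 2.29 in that edgeR fit (SE 0.65, adjusted p = 0.00396), as was Phlda3 with 1 UMI in 3 tumors (adjusted p = 0.0161), beside 11.6% of 9605 genes higher and 9.54% lower. Without the block, this comparison called 0 members, and 52 genes higher and 1 lower of the 9605, beside 0.541% and 0.0104%, while an unadjusted p under 0.05 was reached by 798 genes upward and 779 downward. Left out in turn in the unblocked edgeR fit, tumor 1 was the one without which Cdkn1a (adjusted p = 0.0198), Sesn2 (adjusted p = 0.000233) and Trp53inp1 (adjusted p = 0.0238) were called. In tumors 2 and 3 the 9 mitotic markers summed to 1267 and 1590.3 CPM in neutrophil-like cells, beside the tumor markers given above, and their part in these values was not tested.

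Set directly against tumor-like cells without a block, neutrophil-like cells had more Cdkn1a (log2 fold change 5.66, adjusted p = 0.00160), Sesn2 (6.80, adjusted p = 6.69e-05) and Trp53inp1 (5.93, adjusted p = 0.000125), and less Trp53 (-2.10, adjusted p = 0.0291), by edgeR with 19.9% of 7112 genes higher and 6.12% lower. These were 4 of the 7 members tested, and with the block 3 were again higher and 1 lower, beside 16.2% and 4.64% of genes. The 5 and 2 UMIs of Cdkn1a and Sesn2 in the 22 neutrophil-like cells of tumor 3 make its values the least precise. Phlda3 was also called higher in the fit over all classes in fibroblast or perivascular-like (adjusted p = 9.36e-07), mesothelial-like (adjusted p = 0.000806, a lone sum of tumor 1) and endothelial-like cells (adjusted p = 0.00212), Cdkn1a in classical monocyte-like cells (adjusted p = 0.00802) and Sesn2 in plasmacytoid dendritic-like cells (adjusted p = 0.0426), by the same edgeR test, beside 14.2%, 10.4%, 12.1%, 10.2% and 6.85% of genes called higher in these classes. Against all other named cells pooled and with the block, 2 of these calls held, Phlda3 in fibroblast or perivascular-like cells (log2 fold change 3.31, adjusted p = 3.97e-07) and Cdkn1a in classical monocyte-like cells (1.76, adjusted p = 0.0106 in edgeR), beside 9.09% and 3.02% of genes higher. Phlda3 in endothelial-like cells (0.88, adjusted p = 0.509) and Sesn2 in plasmacytoid dendritic-like cells (1.10, adjusted p = 0.410) did not pass that edgeR test, beside 8.15% and 3.48% of genes higher. Without the block none of these 4 values passed, with 0.191 for Phlda3 in fibroblast or perivascular-like cells as the lowest adjusted p in edgeR, beside 0.648%, 0%, 4.73% and 0% of genes in the order named. Mesothelial-like cells, with a lone sum, were not compared this way.

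Whether p53 genes differ between dividing and other tumor-like cells was asked within the class. No cluster met the rule for a mitotic name, so tumor-like cells were thinned to 1000 UMIs, which left out 162 of the 317 cells of tumor 1 as too shallow and none of tumors 2 and 3, and the 36, 84 and 280 cells of tumors 1, 2 and 3 with at least 5 UMIs of 9 mitotic markers were set against the 26, 72 and 147 cells with none, a rule added after the data had been seen. Most of the scored cells had some such UMIs but fewer than 5 and were in neither group. Trp53 was at 79.1, 121 and 68.2 CPM in the mitotic cells and 65.7, 116 and 102 CPM in the cells with none. Mdm2 was at 70.3, 98.0 and 42.4 CPM against 46.9, 68.0 and 83.5 CPM. For both genes the mitotic value was higher in tumors 1 and 2 and lower in tumor 3. Neither passed the test, with log2 fold changes of -0.20 (SE 0.36) and -0.16 (SE 0.41) and an adjusted p of 0.999 each in edgeR, 0 members at an unadjusted p under 0.05 and 0 by DESeq2, beside 0.259% of 2705 genes called higher by edgeR, 0.333% by DESeq2 and 0% lower. The other 8 members were below the filter on low counts. Cdkn1a, which blocks the cycle, had 0, 6 and 3 UMIs in the mitotic cells (0, 34.6 and 5.53 CPM). It had 0, 14 and 1 UMIs in the cells with no mitotic marker (0, 95.1 and 3.63 CPM). In tumor 2, which held most of these UMIs, its level was lower in the mitotic cells, with overlapping 95% Poisson intervals of 12.7 to 75.3 and 52.0 to 159.6 CPM, which cover counting error only.

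Clustered again, tumor-like cells formed 4 subclusters. One of 409 cells was led by noncoding RNAs such as Kcnq1ot1 and Meg3, and another of 787 cells by hemoglobin genes, which red cells make. Zmat3 was at 66.5, 64.6 and 41.6 CPM in the former and 31.2, 21.4 and 32.3 CPM in the latter, and Mdm4 at 71.6, 64.6 and 73.1 CPM against 21.8, 47.8 and 25.8 CPM. Both were higher in the subcluster of noncoding RNAs than in that of hemoglobin genes in all 3 tumors. The other pair of subclusters did not all lie lower. One had Mdm4 at 79.2, 69.3 and 37.2 CPM (2, 7 and 85 UMIs) and Zmat3 at 0, 39.6 and 19.7 CPM (0, 4 and 45 UMIs), and the other Mdm4 at 40.5, 38.6 and 31.4 CPM (2, 8 and 10 UMIs) and Zmat3 at 81.0, 9.66 and 25.1 CPM (4, 2 and 8 UMIs). Cdkn1a had 1, 24 and 0 UMIs in the subcluster of noncoding RNAs, or 5.11, 53.4 and 0 CPM, so that 24 of the 41 Cdkn1a UMIs of tumor-like cells of tumor 2 lay in its 117 cells. The subclusters were formed from the same cells and were not tested.

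The rest of the pathway was read from lists of genes known to be p53 targets or regulators, and every call in these lists is at an adjusted p under 0.05 in edgeR. A list of 31 other p53 targets, of which 23 were tested against the pooled other cells with each tumor as a block, had 9 lower and 2 higher in tumor-like cells, beside the 28.2% of all genes lower and 16.6% higher in that fit, and 12 not called. It had a median log2 fold change of -0.34 beside -0.02 over all genes. Among those that fell were the secreted stress factor Gdf15 (log2 fold change and then mean level in tumor-like and in other cells, -5.31, 1.16 against 36.4 CPM), the BH3-only death gene Pmaip1, or Noxa (-5.02, 1.40 against 31.0 CPM), the death receptor Fas (-4.46, 2.06 against 27.0 CPM) and the antiproliferative gene Btg2 (-3.18, 73.9 against 555 CPM). The 2 that rose were Psrc1, a spindle protein (1.88, 30.9 against 9.19 CPM), and the exonuclease gene Aen (0.79, 50.3 against 23.6 CPM). In the fit over all classes, 4 of 22 were higher and 1 lower, beside 24.5% and 3% of all genes, with Btg2 lower (-2.68), and Psrc1 (3.43), Aen (1.11) and the BH3-only gene Bbc3, or Puma (1.57), among those higher, and a median of 0.00 beside 0.25 over all genes.

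Of 22 regulators and relatives of p53, 19 were tested in the pooled comparison, and 5 were higher and 3 lower in tumor-like cells, beside 16.6% of all genes higher and 28.2% lower, with a median of 0.20. The checkpoint kinase Chek1 (2.39, 27.4 against 5.92 CPM), the damage response adaptor Trp53bp1 (1.28, 62.5 against 21.6 CPM), the deubiquitinase Usp10 (1.25, 77.5 against 27.2 CPM) and the nucleolar protein Npm1 (1.22, 3305 against 1223 CPM) rose. The coactivator Ep300 (-1.21, 32.3 against 60.6 CPM) and the ubiquitin ligases Rchy1 (-1.17, 23.2 against 42.7 CPM) and Cop1 (-0.77, 49.6 against 66.9 CPM) fell. The fit over all classes called 6 of 14 higher and 1 lower, beside 24.5% and 3% of all genes, with the largest values for Chek1 (2.69), the ubiquitin ligase Ube4b (1.74), Usp10 (1.63) and Trp53bp1 (1.47), and a median of 0.47. The number of calls without the block was 1 higher and 9 lower among the targets and 7 higher and 2 lower among the regulators, beside 13.5% of all genes higher and 28.1% lower.

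In nonclassical monocyte-like cells the pooled comparison called 0 of 24 other targets with the block (median -0.00 beside -0.17 over all genes) and 0 without it, and of 19 regulators 1, Npm1, which was lower (-1.03, 1021 against 2225 CPM), beside 4.54% of all genes higher and 6.34% lower with the block. The fit over all classes called 5 of 22 targets higher and 0 of 14 regulators, beside 12.5% of all genes. Of these 5, Pmaip1 (log2 fold change 2.33, 37.9 CPM against a mean of 22.9 CPM over the other classes), Fas (1.80, 36.0 against 24.6 CPM) and Bbc3 (1.72, 31.4 against 17.3 CPM) were also higher by mean level. The other 2, Sulf2 (1.80, 21.6 against 27.6 CPM) and Gdf15 (4.17, 16.5 against 18.3 CPM, named after its values were seen), were not, so that their direction differs between a mean of logs and a mean of levels. Against classical and C1q cells pooled, 2 of 9 targets were lower with the block, Gdf15 (-2.64) and the sulfatase Sulf2 (-1.32), beside 6.42% of all genes, and 0 without it. In neutrophil-like cells, 5 of 20 targets were higher and 1 lower with the block, beside 11.6% of all genes higher and 9.54% lower, and 0 without it. The polo-like kinase Plk3 (4.51, 448 against 20.5 CPM), the growth arrest gene Gadd45a (3.83, 248 against 22.3 CPM), Fas (3.41, 106 against 12.4 CPM) and Btg2 (2.88, 1688 against 279 CPM) were among those higher, and Gdf15, with no UMI in neutrophil-like cells, was lower. Of 19 regulators, 1 was higher with the block, the coactivator Crebbp (1.14, 150.4 against 84.9 CPM), and 4 were lower, Usp10 (-1.80), Npm1 (-1.02, 1262 against 2164 CPM) and the ribosomal proteins Rpl5 and Rpl11, which bind Mdm2 (-0.97 and -0.92), beside the same shares of all genes, and 0 either way without it.

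The genes whose mean log2 level followed each member most closely over 11 classes were listed as a description, since the points share libraries and depths. The closest to Trp53 were Scap, Cspp1 and Glod4 (Pearson r 0.93 for Scap), to Mdm2 Ireb2, Mien1 and Cdk9 (0.99 for Ireb2) and to Mdm4 Rnf114, Dnajc14 and Ccdc107 (0.97 for Rnf114). Cdkn1a was nearest to Picalm, Ier3 and Cd14 (0.94 for Picalm), Phlda3 to Camk2n1, Rcn3 and Cp (0.97 for Camk2n1) and Ccng1 to Mgat5, Csnk1d and Vma21 (0.92 for Mgat5). Sesn2 was nearest to Trib1, Slc2a1 and Ccpg1 (0.90 for Trib1) and Trp53inp1 to Gm12840, Crebrf and Klrb1f (0.89 for Gm12840). None of the 8 members was among the nearest of another.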

How the data were processed

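Whole tumors from 3 TH-MYCN mice, 1 group with the mouse as replicate, were profiled by 10x 3' single-cell RNA sequencing. The submitters' processing notes name Cell Ranger 3.1.0, Seurat 3.1.5 and 3 and the mouse build mm10. The authors deposited raw UMI counts per gene and barcode, and normalized values, which are a corrected count plus 1 on a natural log scale, for cells left after they had removed ambient RNA, doublets and low-quality barcodes. All normalized values gave whole corrected counts within 1e-06. Levels were taken from the raw counts of these kept cells, and no further doublets were removed. Of the 31053 symbols, 30464 (98.1%) were found in GENCODE M21.

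Cells were clustered with Seurat 5.3.0 in R 4.3.3 (2000 variable genes, 30 dimensions, 20 neighbors, resolution 1, tumors integrated, subclusters at 0.5), with 63 genes of the p53 lists held out. A cluster took a name when at least 3 markers were 2-fold up and in 10% of its cells. For each class with at least 10 cells in a tumor, its UMI counts were added up and tested with edgeR 4.0.16 (TMM, filterByExpr, quasi-likelihood, threshold 0.05), without a block. DESeq2 1.42.0 and limma 3.58.1 (log2 of CPM plus 2) were alternatives. A class with a single sum was assumed to vary like the others. The members and gene lists were chosen with earlier results of these data known. Of the lists, up to 4 called genes per direction were named, by size of change, when changed alike in every tumor and at 20 CPM or more in the higher group. Genes near a member are the 3 with the highest correlation over classes with sums in at least 2 tumors.

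Both sums of a tumor come from the same mouse, so the tumor pairs them: deviations from class means correlated at a median of 0.21 within a tumor (lowest -0.03, 136 pairs) and -0.13 between tumors, and at 0.33 and -0.24 among monocyte and macrophage classes. Kept cells held 12628163, 2740537 and 5215401 UMIs in tumors 1, 2 and 3. Intervals (95%) and the limit of 3 counts cover counting error only. The edgeR, DESeq2 and limma fits were tested on simulated data. Promoter windows come from RefSeq, and no columns of other samples were present.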

Additional observations from a re-analysis of the deposited data

Results flagged for a closer look

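Barcodes that the authors removed before normalization, 1343, 3106 and 3523 in tumors 1, 2 and 3, lay outside every comparison and yet held UMIs of all 10 genes above the 0.0777 CPM that 3 counts allow. Of these barcodes, 78.6%, 93.3% and 92.3% had more than 20% mitochondrial UMIs. With the 3 tumors pooled, Trp53 was at 50.9 CPM, Mdm2 at 32.3 CPM and Mdm4 at 55.1 CPM in them. Zmat3 was at 25.2 CPM, Ccng1 at 10.3 CPM, Cdkn1a at 9.84 CPM and Phlda3 at 8.16 CPM, and Trp53inp1 at 3.78 CPM, Sesn2 at 1.17 CPM and Eda2r at 0.881 CPM.

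Cdkn1a was at 34.7, 9.17 and 2.83 CPM in the removed barcodes against 95.3, 61.7 and 13 CPM in the kept cells of tumors 1, 2 and 3, lower in each tumor. Mdm4 was at 55.4, 55.3 and 54.8 CPM against 48.3, 44.2 and 42.6 CPM, higher in each. Phlda3 was at 46.0 CPM against 24.7 CPM in tumor 1, and at 3.14 and 2.63 CPM against 13.9 and 7.29 CPM in tumors 2 and 3. Mitochondrial UMIs lower every level in these barcodes, and without mitochondrial genes Mdm4 was at 63.0, 84.2 and 84.9 CPM against 50.5, 46.7 and 44.6 CPM. On that scale Cdkn1a was at 39.5, 14.0 and 4.39 CPM against 99.5, 65.3 and 13.6 CPM, and Phlda3 at 52.3, 4.79 and 4.07 CPM against 25.8, 14.7 and 7.63 CPM, with each direction as before. Other members turned on that scale. Trp53 was at 79.7 and 67.8 CPM against 79.6 and 61.4 CPM in tumors 2 and 3, where it had been lower with mitochondrial genes. Mdm2 turned likewise in tumor 3 (54.3 against 53.8 CPM) and Zmat3 in tumor 2 (35.6 against 29.7 CPM). So did Ccng1 in tumor 1 (43.6 against 41.0 CPM) and Eda2r in tumor 2 (1.04 against 0.772 CPM). The removed barcodes have no cell class, and these differences were not tested.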

How the results depend on the processing

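With each tumor as a replicate block, tumor-like cells had 1 member lower (Cdkn1a, adjusted p = 0.0187 in edgeR) where the fit without it called 0, and nonclassical cells had 1 member lower than classical and C1q cells (Cdkn1a) where it called 0. With other cells pooled, 5 members were lower in tumor-like cells with and without the block. Other alternatives gave 3 lower by DESeq2, 1 with no filter on low counts and 2 with no integration, which also called 1 higher. Left out in turn, the tumors gave 0 to 1 higher and 0 lower. In nonclassical cells, the 1 member called higher (Phlda3) became 0 with limma on the authors' values and with other cells pooled without the block. Against classical and C1q cells, 1 was higher rather than 0 with no filter, with no integration, with the unnamed subcluster counted as C1q, with these cells pooled and blocked (which also gave 1 lower), and in 0 to 1 when tumors were left out.

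Directions turned for log2 fold changes that passed no test. In tumor-like cells these were Trp53 (-0.00097 with no integration), Mdm4 (-0.19 with no filter, -0.19 at resolution 0.6, -0.14 with the unnamed subcluster as C1q, -0.22 pooled, -0.19 pooled and blocked) and Phlda3 (from -1.05 without tumor 2 to 0.60 without tumor 1, and 0.02 without tumor 3). In nonclassical cells they were Trp53 (-0.19 with no integration, -0.11 without tumor 2 to 0.39 without tumor 1, -0.036 pooled, -0.080 pooled and blocked), Cdkn1a (-0.060 pooled) and Sesn2 (from -0.31 without tumor 1 to 1.06 without tumor 2, -0.20 pooled, -0.41 pooled and blocked). Against classical and C1q cells, Trp53 ran from -0.14 without tumor 2 to 0.43 without tumor 3, and Mdm2 at 0.11 at resolution 0.6, 0.18 with no integration and from -0.37 without tumor 3 to 0.29 without tumor 2. In mitotic cells, Trp53 ran from -0.33 without tumor 1 to 0.083 without tumor 3. The cause was not tested for any of these.

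Counts over all genes varied more. In tumor-like cells 2002 genes were higher and 245 lower, against 1873 and 1498 by DESeq2, 32 and 80 by limma, 3371 and 1360 with no integration, 803 and 204 at resolution 0.6, 1172 and 267 with the unnamed subcluster as C1q, 1338 and 2789 pooled, 1646 and 2800 pooled and blocked, and 55 to 116 lower with a tumor left out. In nonclassical cells 1019 were higher and 9 lower, against 603 and 30 by DESeq2, 369 and 44 by limma, 1475 and 38 with the block, 0 and 0 pooled, and 486 and 679 pooled and blocked. Against classical and C1q cells 51 and 57 became 257 and 198 with the block, 92 and 80 with no filter, 12 and 20 by limma, 60 and 105 by DESeq2, 25 and 19 at resolution 0.6, 101 and 51 with no integration, and 0 and 0 without tumor 2. The median over all genes was 0.25 in tumor-like and 0.35 in nonclassical cells. Resolution 0.6 and no integration were not run for mitotic cells. Tumors 2 and 3 had few immune cells, which limits every value of those classes.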

Other observations

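A cluster that took no name, led by the plasma cell genes Jchain, Igkc and Mzb1 but also by Chga, held 23 cells of tumor 1, in which Trp53inp1 was at 441 CPM (108 UMIs). In the 81 and 75 cells of this cluster in tumors 2 and 3, it was at 20.2 and 0 CPM (3 and 0 UMIs). Another unnamed cluster, led by the chemokine genes Ccl4 and Ccl3 and by Il1rn, held 109 cells of tumor 1, with Cdkn1a at 231 CPM (53 UMIs) and Trp53 at 100.2 CPM (23 UMIs). Its 13 cells of tumor 2 held no UMI of either gene. Adgre4, a marker used for nonclassical monocyte-like cells, was also among the leading genes of this cluster, at a median depth of 944.5 UMIs. Ccl4 and Il1rn also led the first nonclassical subcluster. The cells of this unnamed cluster are in no class, so that the nonclassical Cdkn1a values above do not include them.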
